A study of Mus musculus with 2 samples.

Results

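The genes described here are 10 genes of peptide signalling in the mouse uterus: the peptide precursor genes Tac2, Tac1, Penk, Npy, Vip, Calca and Adm, the tachykinin receptor genes Tacr2 and Tacr3, and Mme, which encodes a peptide-degrading enzyme. Of the 10, 9 were among the 12393 genes that single-gene probe sets represent, and Calca was not analysed here. Members were chosen by name, and Tac2, Penk and Npy were picked for their drop in the Cbs null array, so their ratios describe that choice and are no test of it. Total RNA came from uterine tissue between implantation sites, dissected from 4-month-old C57Bl/6J X OLA129 females on day 8 of pregnancy. The Cbs null group, from females homozygous for Cbs deficiency, was 1 Affymetrix array, and the control group was 1 array. The labels do not say which part of Cbs was altered, in which cells, what the control genotype was beyond the word control, or whether animals were pooled. Cbs encodes cystathionine beta-synthase, an enzyme that uses homocysteine. With 1 array per group no difference below has a replicate check or a test.

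Neuropeptides are made as longer precursor proteins, which are cut at basic residues, often amidated at the C-terminus, and released to act on G protein-coupled receptors until membrane peptidases degrade them. In the uterus they are known from nerve fibres that reach the blood vessels and the muscle wall, and some precursors are also transcribed by uterine cells. Tachykinins contract smooth muscle, enkephalins are opioid peptides, neuropeptide Y constricts vessels, and vasoactive intestinal peptide, calcitonin gene-related peptide and adrenomedullin relax them.

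The deposited signals were on one scale, with 2% trimmed means of 200.07 for the Cbs null array and 200.08 for the control array. Weak signals on such arrays cannot be ordered, so a floor of 43.2, the 40th percentile of the pooled signals, replaced every smaller value. A measured gene is one that exceeded this floor in 1 sample or in both. The technical SD of a log2 ratio was 0.22, taken from the disagreement between probe sets of 2757 genes, and it leaves out the spread between mice. Cbs itself read 42.6 in the Cbs null sample and 79.8 in the control sample, at least 1.85-fold lower against the floor. It passed the floor through the control sample alone, so it could only come out lower, and this bound did not reach 2-fold. Its second probe set was below the floor on both arrays, at 25.1 in the Cbs null sample and 39.8 in the control sample. Among smooth muscle markers 14 of 15 were measured, and among uterine epithelium markers 19 of 19. Both cell types belong to the uterus at large, so these lists cannot tell tissue between implantation sites from the sites themselves. The decidual markers Tdo2 and Prl8a2 read 685.3 and 424.4 in the control sample. In the Cbs null sample they read 27.4 and 5.8, under the floor. Of 11 trophoblast and embryo markers, 10 were below the floor on both arrays. Whether either sample held implantation site tissue was not tested.

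The promoter windows of Tac2 and Npy are shown because they are among the 3 lower precursors, and that of Adm because it is the precursor that was measured and hardly differed. Each runs from 250 bases before to 50 bases after the gene's start, from RefSeq, build GRCm38.p6, 5′ to 3′, and capitals mark every CG dinucleotide. Of the 10 genes, 9 had a window in that table. Penk, the remaining lower precursor, had none, so the window statements leave it out.
Tac2, chr10:127724228-127724527, plus strand: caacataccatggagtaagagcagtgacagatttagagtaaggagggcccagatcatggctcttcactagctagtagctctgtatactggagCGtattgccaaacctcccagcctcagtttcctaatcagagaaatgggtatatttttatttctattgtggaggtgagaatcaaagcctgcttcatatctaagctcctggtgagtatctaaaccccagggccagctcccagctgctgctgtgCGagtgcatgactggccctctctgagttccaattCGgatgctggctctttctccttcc
Npy, chr6:49822460-49822759, plus strand: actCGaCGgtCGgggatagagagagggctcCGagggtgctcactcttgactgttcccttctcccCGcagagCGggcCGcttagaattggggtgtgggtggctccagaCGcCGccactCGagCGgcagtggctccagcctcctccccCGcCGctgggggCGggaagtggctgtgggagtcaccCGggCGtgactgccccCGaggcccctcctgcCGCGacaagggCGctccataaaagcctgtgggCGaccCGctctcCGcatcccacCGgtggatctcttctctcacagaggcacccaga
Adm, chr7:110627407-110627706, plus strand: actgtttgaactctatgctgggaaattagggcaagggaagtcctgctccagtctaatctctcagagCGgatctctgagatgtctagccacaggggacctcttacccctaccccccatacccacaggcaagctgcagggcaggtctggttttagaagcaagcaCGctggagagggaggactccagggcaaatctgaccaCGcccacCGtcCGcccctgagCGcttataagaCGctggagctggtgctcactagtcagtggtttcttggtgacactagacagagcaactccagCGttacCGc
The Tac2 window held 3 CG dinucleotides and was 48.3% G and C, whereas the Npy window held 24 and was 68.0% G and C. The Adm window held 9 and was 56.0% G and C. The median over 32851 windows of 300 bases was 7 CG dinucleotides and 52.7% G and C, so the Tac2 and Npy windows lay on opposite sides of it.

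The windows were also searched on both strands for TATAAA (known as the TATA box, present in 13.6% of all windows), TGACG (the core of the cAMP response element, 20.8%), CACGTG (an E-box, 7.2%) and ACANNNTGT (a core of the progesterone and glucocorticoid receptor element, 6.8%). None of these letters occurred in the windows of Tac2, Npy, Adm, Tacr2 or Mme. TGACG occurred in the windows of Vip, Tac1, Calca and Tacr3. In Vip it began 79 bases before the start, above a TATAAA that began 30 bases before it. Vip also held TATAAA at 157 and 147 bases before the start, and Tacr3 held it at 29 bases. CACGTG occurred in the window of Tac1, 61 bases before the start, and ACANNNTGT in no member window. No matched letters in such a window say nothing about whether a factor acts on the gene.

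Of the 9 genes with a probe set, 5 were measured, and in 3 of these the Cbs null signal was lower by 2-fold or more. Those 3 were Tac2, Penk and Npy, the genes picked for that drop. Over all 8407 measured genes, 0.714% were at least 2-fold lower and 0.797% at least 2-fold higher, and 0 members were at least 2-fold higher. Nothing is read from the members' count, since the choice fixed it. Adm and Mme differed by less than 2-fold, and Tac1, Vip, Tacr2 and Tacr3 were below the floor on both arrays. In such bulk tissue, fewer cells of a type and less RNA per cell cannot be told apart.

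**Figure D1:**
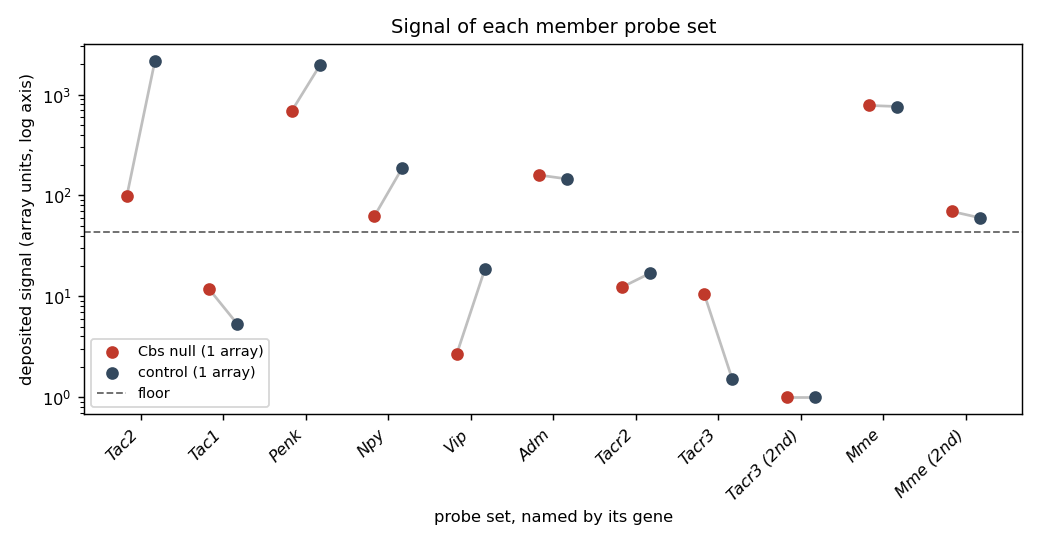
Deposited signal (array units, log axis) of the 11 probe sets of the 9 member genes on the Cbs null array and the control array, 1 array each; the dashed line is the floor of 43.2. Tac2, Penk and Npy lie lower in the Cbs null sample, Adm and Mme are level, and Tac1, Vip, Tacr2 and Tacr3 lie under the floor in both samples.

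Tac2 encodes the precursor of neurokinin B, the tachykinin that prefers the receptor Tacr3. Its signal was 99.5 in the Cbs null sample and 2160.2 in the control sample. The Cbs null value was 4.61% of the control value, 21.7-fold lower, a log2 ratio of -4.44. It still lay above the floor, so the transcript was low rather than unmeasured in the Cbs null sample. Of the 8407 measured genes, 1 had a lower ratio, A2m. That place holds for floored ratios. Genes under the floor in the Cbs null sample carry bounds, so their differences may be larger than that of Tac2. Tdo2, with 27.4 in the Cbs null sample and 685.3 in the control sample, had a bound of at least 15.9-fold. Among 1433 genes of like signal, measured in both samples with a mean log2 signal within 0.5 of that of Tac2, 11 were at least 2-fold lower and the median log2 ratio was 0.01. Tac2 was represented by 1 probe set, so no second reading of the gene exists on these arrays.

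Tac1, the precursor of substance P and neurokinin A, read 11.7 in the Cbs null sample and 5.3 in the control sample. Both values were under the floor and have no order. Tac1 and Tac2 code for peptides with a shared C-terminal motif, but the transcript well above the floor in the control sample was that of Tac2. The neurokinin A receptor gene Tacr2, best known from smooth muscle, read 12.3 in the Cbs null sample and 16.9 in the control sample. The neurokinin B receptor gene Tacr3 read 10.5 in the Cbs null sample and 1.5 in the control sample on its brighter probe set. Its other probe set read 1.0 on each array. The substance P receptor gene Tacr1, which is no member, read 2.7 in the Cbs null sample and 1.1 in the control sample, and the remaining tachykinin precursor gene Tac4 read 20.5 in the Cbs null sample and 15.1 in the control sample. So of 6 tachykinin precursor and receptor genes on the array, Tac2 was the 1 above the floor.

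Penk encodes proenkephalin, from which the opioid peptides Met-enkephalin and Leu-enkephalin are cut. It read 690.9 in the Cbs null sample and 1949.3 in the control sample. The Cbs null value was 35.4% of the control value, 2.82-fold lower, a log2 ratio of -1.50. Both readings were far above the floor, which makes this ratio the least sensitive of the 3 to how weak signals are treated. Among 554 genes of like signal, 3 were at least 2-fold lower and 0 had a lower ratio than Penk. Those genes leave out any under the floor on 1 array. Over all 8407 measured genes, 23 had a lower floored ratio than Penk. The other opioid precursor genes Pdyn, Pomc and Pnoc were below the floor on both arrays. So were the opioid receptor genes Oprm1, Oprd1, Oprk1 and Oprl1. Ogfr, which encodes a non-classical receptor for Met-enkephalin, read 434.1 in the Cbs null sample and 434.9 in the control sample. Its relative Ogfrl1 read 108.6 in the Cbs null sample and 72.5 in the control sample, a log2 ratio of 0.58.

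Npy encodes neuropeptide Y, a co-transmitter of sympathetic nerves. It read 62.2 in the Cbs null sample and 188.2 in the control sample. The Cbs null value was 33.0% of the control value, 3.03-fold lower, a log2 ratio of -1.60. The Cbs null reading was close to the floor of 43.2. With the floor at the 60th percentile, 120.3, it lay under the floor, the difference became a bound of at least 1.56-fold, and the 2-fold call was lost. Among 1934 genes of like signal, 14 were at least 2-fold lower and 2 had a lower ratio than Npy. Over all 8407 measured genes, 20 had a lower floored ratio than Npy. The related precursor genes Pyy and Ppy, and the receptor genes Npy1r, Npy2r, Npy4r, Npy5r and Npy6r, were below the floor on both arrays.

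**Figure D2:**
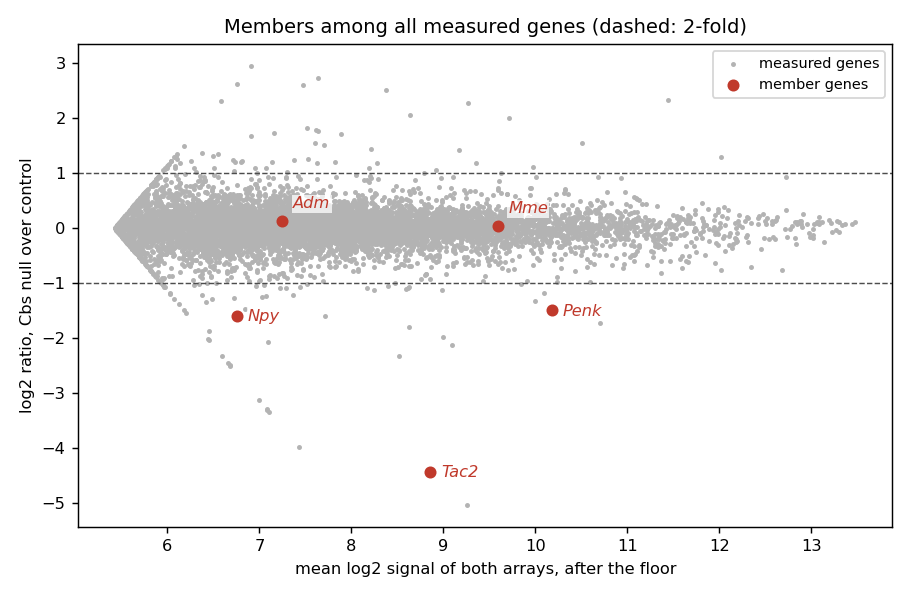
Log2 ratio of Cbs null over control against the mean log2 signal for the 8407 measured genes (grey) and the 5 measured members (red); dashed lines mark 2-fold. Tac2 at -4.44 has 1 gene below it after the floor, which makes the ratios of genes under it in the Cbs null sample bounds. Penk at -1.50 lies low among bright genes, and Adm at 0.13 and Mme at 0.03 lie within the bulk.

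Adm encodes adrenomedullin, a vasodilator peptide. It read 158.9 in the Cbs null sample and 145.6 in the control sample, a log2 ratio of 0.13, which is less than the technical SD of 0.22. The adrenomedullin receptor is built from Calcrl and a Ramp protein. Calcrl read 250.9 in the Cbs null sample and 239.9 in the control sample, and Ramp2 read 597.1 in the Cbs null sample and 575.8 in the control sample. Ramp1, which pairs with Calcrl to bind calcitonin gene-related peptide, read 1194.1 in the Cbs null sample and 1430.7 in the control sample. Ramp3 read 128.2 in the Cbs null sample and 162.4 in the control sample. The ligand, the receptor and its partners were thus measured on both arrays, and none of them reached 2-fold. The scavenger receptor gene Ackr3, which also binds adrenomedullin, had a log2 ratio of -0.55. Crcp, which encodes a component of the calcitonin gene-related peptide receptor, had one of 0.50.

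Vip, the precursor of vasoactive intestinal peptide, read 2.7 in the Cbs null sample and 18.6 in the control sample. Both values were under the floor, so they have no order. Its receptor genes Vipr1 and Vipr2 and the related precursor gene Adcyap1 were below the floor on both arrays. Of 7 genes of that system on the array, 0 were measured. Calcb, which encodes the second calcitonin gene-related peptide, read 8.9 in the Cbs null sample and 13.0 in the control sample, under the floor.

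Mme encodes neprilysin, a membrane peptidase that degrades enkephalins, tachykinins and natriuretic peptides. It read 779.6 in the Cbs null sample and 761.0 in the control sample, a log2 ratio of 0.03. Its second probe set read 69.4 in the Cbs null sample and 60.1 in the control sample, a log2 ratio of 0.21. Both ratios were below the technical SD, and Mme was the 1 measured member with a second probe set above the floor. The other peptide-degrading enzymes also stayed within 2-fold: of 21 on the array 17 were measured, with a median log2 ratio of -0.01. Taking the brightest probe set of each gene, they ranged from -0.40 for Ace to 0.62 for Anpep. A second Ece1 probe set lay outside this range, with 173.7 in the Cbs null sample and 328.3 in the control sample. Its log2 ratio was -0.92, against 0.04 for the Ece1 probe set used. Anpep, aminopeptidase N, which acts on enkephalins, read 1028.7 in the Cbs null sample and 667.7 in the control sample.

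On the list of genes for precursor processing, which holds granins and convertase-binding proteins beside the enzymes, 9 of 18 genes on the array were measured. Pam, which amidates the C-terminus of neurokinin B, neuropeptide Y and adrenomedullin, was at least 2.44-fold higher, with 105.3 in the Cbs null sample and 23.1, under the floor, in the control sample. It rested on 1 probe set, and since it passed the floor through the Cbs null sample alone, it could only come out higher. No other gene of this list reached 2-fold. The carboxypeptidase gene Cpe read 2405.6 in the Cbs null sample and 1821.3 in the control sample. The convertase gene Pcsk5 read 204.9 in the Cbs null sample and 353.1 in the control sample on its brightest probe set. Another probe set was nearly level, at 71.5 in the Cbs null sample and 66.9 in the control sample. A further one read 23.0, under the floor, in the Cbs null sample and 56.9 in the control sample. The probe sets of Pcsk5 thus disagreed. Cpe and Pcsk5 were chosen with their values in view. The neuroendocrine convertase gene Pcsk1 was below the floor on both arrays.

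The 9 lists of peptide genes held 163 genes, of which 143 had a probe set and 54 were measured. Apart from the members, 49 were measured, 1 was at least 2-fold lower (Nppa) and 1 at least 2-fold higher (Pam). Their median log2 ratio was 0.00, against 0.02 for all measured genes. Of 16 receptor genes for the member peptides, a count that leaves out the non-classical Ogfr, 14 were below the floor on both arrays, the exceptions being Calcrl and Ackr3.

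**Figure D3:**
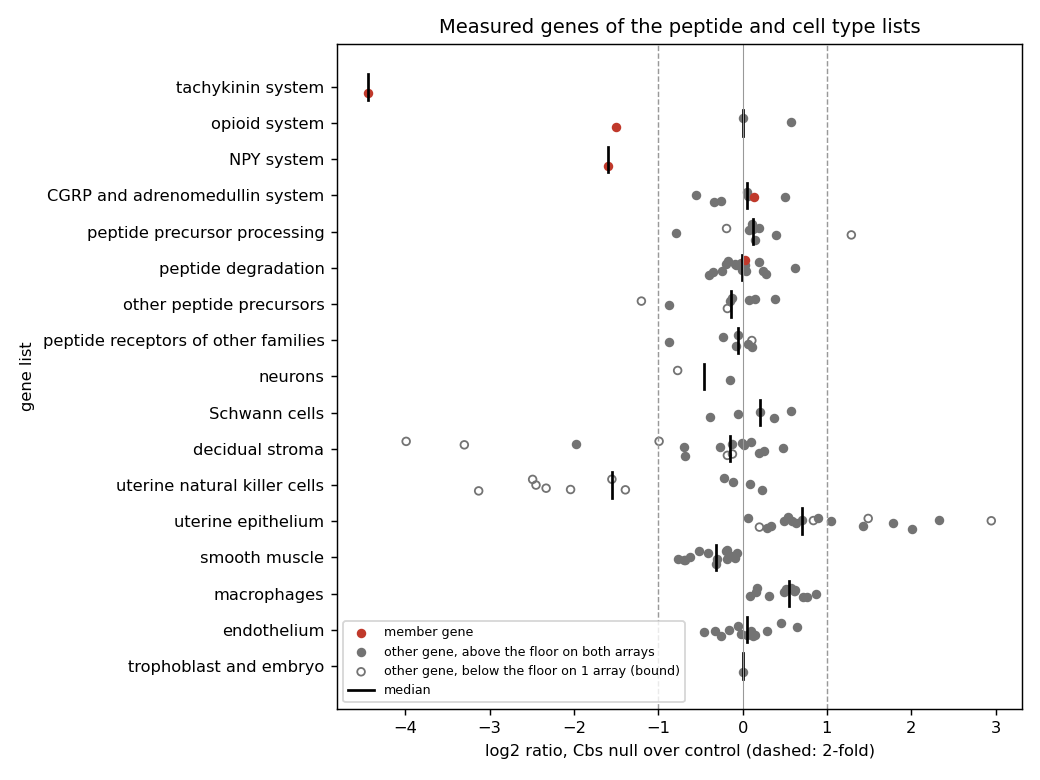
Log2 ratio of Cbs null over control for the measured genes of each list, with members in red, genes below the floor on 1 array as open circles (bounds) and the list median as a black bar. Tac2, Penk and Npy stand at -4.44, -1.50 and -1.60, and the other genes of the peptide lists lie between -1.20 and 1.29.

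Markers of cells that could hold these transcripts were read beside them. Of 21 neuron markers on the array, 19 were below the floor on both arrays, among them Tubb3 at 0.4 in the Cbs null sample and 1.2 in the control sample and the noradrenaline synthesis gene Th at 11.2 in the Cbs null sample and 6.2 in the control sample. Stmn2 read 23.8 in the Cbs null sample and 73.5 in the control sample, at least 1.70-fold lower. It passed the floor through the control sample alone, so it could only come out lower. Ngfr read 206.1 in the Cbs null sample and 229.0 in the control sample. The summed neuron signal was 484.2 in the Cbs null sample and 545.6 in the control sample. Sums here and below add the deposited signals of every list gene on the array, also those under the floor. All 9 chromaffin and neuroendocrine markers were below the floor on both arrays. Their sums, 123.6 in the Cbs null sample and 133.0 in the control sample, therefore have no order. Of 10 Schwann cell markers 5 were measured, none at 2-fold, with Erbb3 at 0.58 and Ncam1 at -0.39, and with sums of 2190 in the Cbs null sample and 2223 in the control sample. The cell bodies of most uterine nerve fibres lie outside the uterus, so the neuron list does not measure fibres.

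Some markers of other cell types were lower beside Tac2, Penk and Npy. Of 16 measured decidual stroma markers, 3 were at least 2-fold lower and 0 at least 2-fold higher. The other 13 did not reach 2-fold after the floor, and 5 of them had ratios above 0, up to 0.48 for Wnt4. Among these 13, Ptgs2, Alpl and Pgr were under the floor in the Cbs null sample, so their folds are bounds. Ptgs2 read 28.3 in the Cbs null sample and 86.0 in the control sample, at least 1.99-fold lower. Of the 3 lower ones, Tdo2 read 27.4 in the Cbs null sample and 685.3 in the control sample, and Prl8a2 read 5.8 in the Cbs null sample and 424.4 in the control sample. Tdo2 and Prl8a2 passed the floor through the control sample alone and could only come out lower, whereas Fst, at 256.2 in the Cbs null sample and 1011.7 in the control sample, was above it in both. The summed decidual signal was 16756 in the Cbs null sample and 18945 in the control sample, and the median log2 ratio was -0.15. The largest part of both sums was Dcn, which was higher, at 8423.7 in the Cbs null sample and 7026.4 in the control sample. Des, also on the smooth muscle list, was lower, at 1868.9 in the Cbs null sample and 2994.0 in the control sample. Of 11 measured uterine natural killer cell markers, 7 were at least 2-fold lower, led by Gzmd and Gzmg, with sums of 493.3 in the Cbs null sample and 1885 in the control sample. All 7 were granzyme genes, some of them close copies whose probe sets may share targets. All 7 passed the floor through the control sample alone, so they could only come out lower. The other 4 measured markers of these cells were nearly level, with log2 ratios of -0.22 for Prf1, -0.11 for Klrd1, 0.23 for Ctsw and 0.09 for Nkg7. Smooth muscle markers were lower in 14 of 14 measured genes but under 2-fold, with Actg2 at -0.77 and Smtn at -0.70. Several of these differences were smaller than the technical SD of 0.22, down to -0.07 for Acta2. The list median was -0.31, against 0.02 for all measured genes. The sums were 53124 in the Cbs null sample and 64142 in the control sample.

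Epithelial and macrophage markers went the other way. Of 19 uterine epithelium markers, 7 were at least 2-fold higher. They were led by Calb1, with 333.9 in the Cbs null sample and 28.3 in the control sample, and Spink1, with 6218.7 in the Cbs null sample and 1234.4 in the control sample. Calb1 and Muc1, another of the 7, were under the floor in the control sample, so they could only come out higher and their folds are bounds. The other 12 epithelium markers did not reach 2-fold after the floor, from 0.06 for Krt7 to 0.90 for Krt19. Among them Wnt7a and Cldn4 were also under the floor in the control sample, with bounds of at least 1.15-fold and 1.79-fold. The list median log2 ratio was 0.70. The list had sums of 16074 in the Cbs null sample and 6403 in the control sample, with Spink1 the largest part of each. Macrophage markers were higher in 12 of 12 measured genes without reaching 2-fold, with C1qa at 0.87 and C1qc at 0.76. Some of these differences were smaller than the technical SD of 0.22, down to 0.09 for C1qb, and that of Aif1 was a bound. The list median was 0.55, against 0.02 for all measured genes. The sums were 5740 in the Cbs null sample and 3888 in the control sample. Endothelium markers had a median of 0.05, between Eng at -0.46 and Vwf at 0.65, with sums of 5123 in the Cbs null sample and 4681 in the control sample. Of 11 trophoblast and embryo markers 10 were below the floor on both arrays, and Eomes read 61.6 in the Cbs null sample and 61.4 in the control sample. The sums, which include the 10 genes under the floor, were 173.4 in the Cbs null sample and 175.4 in the control sample. The part of these cell types in the lower Tac2, Penk and Npy signals was not tested.

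The genes with the nearest ratio, members left aside, were named for the 3 lower precursors, over 2 arrays, so that likeness is the size of 1 difference. For Tac2 these were A2m at -5.04, Rrm2 at -2.32 and Cxcl14 at -2.13, so that apart from A2m no gene above the floor on both arrays lay within 2-fold of its ratio. For Penk they were Timp1 at -1.47, Serpinb6b at -1.60 and Mrap at -1.34. For Npy they were Serpinb6b, Timp1 and Sfrp4 at -1.74. Penk and Npy differed from each other by less than the technical SD of 0.22, while Tac2 lay far below both.

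The 3 lower precursor genes lie on chromosomes 10, 4 and 6 for Tac2, Penk and Npy, and Cbs lies on chromosome 17, by the RefSeq table. Among the 3 protein-coding neighbours on each side of them, few were measured. They were Nab2 near Tac2 at -0.35, Chchd7 and Bpnt2 near Penk at -0.30 and 0.06, and Mpp6 and Gsdme near Npy at -0.07 and -0.16. None of these neighbours reached 2-fold.

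**Figure D4:**
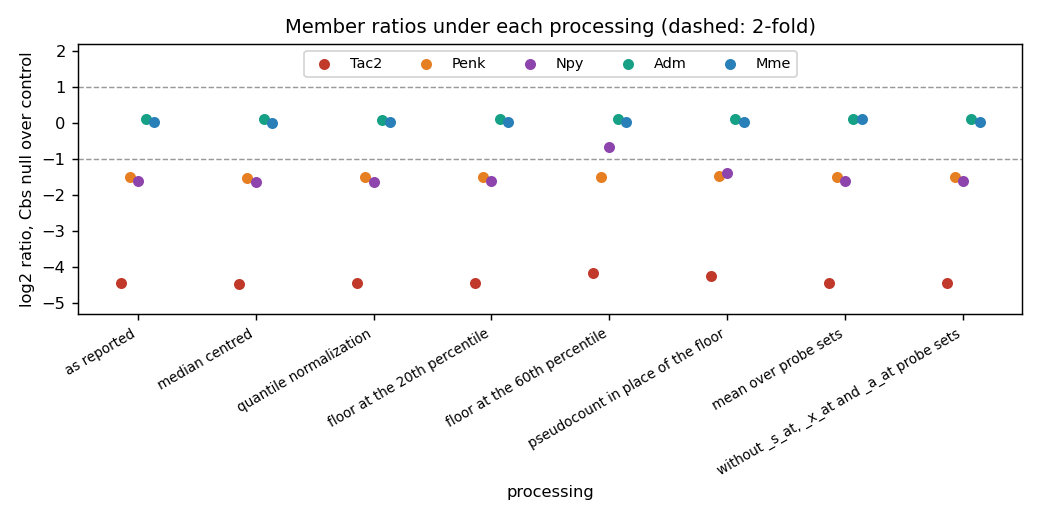
Log2 ratio of Cbs null over control for the 5 measured members as reported and under 7 other ways of processing the signals; dashed lines mark 2-fold. Tac2 stays between -4.46 and -4.17 and Penk between -1.52 and -1.48, whereas Npy moves to -0.65 with the floor at the 60th percentile.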

How the data were processed

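Biotin-labelled cRNA was made from 2 microg of total RNA, per the labels' protocols. The table the authors deposited holds a linear intensity for each probe set in each sample, and the submitters' processing notes name GCOS 1.4. How probe sets were summarised and scaled is not given in the sources used here. Of 22690 probe sets, 64 were controls, 20380 had 1 gene symbol, 691 several and 1555 none. A gene took its 1-symbol probe set of highest mean log2 signal, and 20351 of the 1-symbol probe sets matched the RefSeq table, with 0 symbols changed. The floor, the 2-fold rule and the log2 ratio of Cbs null over control were computed with Python 3.11.15, numpy 2.4.6 and pandas 2.3.3, and the code was tested on simulated data. Scaling to one mean makes every difference relative to the rest of the array. The number of arrays limits the precision.

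The members and the 19 gene lists were chosen with earlier results of these data known. Besides the members, each peptide list's genes at 2-fold are named, or otherwise its 2 largest differences, the 2 largest of each cell type list, receptors of the member peptides, and the 3 genes nearest in ratio. Other genes are named as parts of a peptide system, as neighbours, or as marker examples, and those were chosen after their values were seen. Alternatives changed the scaling, the floor, the handling of weak signals, the probe sets and the size rule.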

Additional observations from a re-analysis of the deposited data

How the results depend on the processing

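Of 9 alternatives, 7 recomputed the ratios, and in these the 5 measured members kept their directions. Tac2 and Penk were at least 2-fold lower in all 7, and Npy in all but the highest floor, at the 60th percentile. The other alternatives changed the size rule alone, and Penk, at 2.82-fold, missed the 3-fold rule. The highest floor gave log2 ratios of -4.17 for Tac2 and -0.65 for Npy, both bounds, because their Cbs null signals lay under 120.3. With the floor at the 20th percentile, 10.9, Tac1, Tacr2 and Vip were measured as well, at 0.10, -0.46 and -0.77. The values for Tac1 and Vip were bounds. Tac1 lay under that floor in the control sample, at 5.3, and Vip in the Cbs null sample, at 2.7. Tacr2 did not reach 2-fold, and for Tac1 and Vip the bounds cannot tell whether the difference was larger. Over all measured genes, 213 were at least 2-fold lower and 242 higher with that lower floor, against 31 lower and 30 higher with the highest floor and 60 lower and 67 higher as reported. With 1.5-fold the counts were 285 lower and 304 higher, and with 3-fold they were 22 lower and 16 higher. Of 79 recomputed list medians, 5 moved by more than the technical SD. They were 4 of the uterine natural killer cell list, from -2.66 to -0.85, and 1 of the Schwann cell list, at -0.05. Weak signal limits the receptors, most of which were under the floor. No paired analysis was possible because each group was 1 array, and for the same reason no array could be left out.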

Other observations

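Other peptide genes outside the member systems held a few differences. Nppa, the precursor of atrial natriuretic peptide, which neprilysin degrades, read 19.5 in the Cbs null sample and 99.3 in the control sample, at least 2.30-fold lower, and it passed the floor through the control sample alone. The signal of the natriuretic peptide receptor gene Npr2 read 421.3 in the Cbs null sample and 443.9 in the control sample, and that of Npr3 read 69.2 in the Cbs null sample and 81.4 in the control sample. Oxt, the oxytocin precursor, read 49.2 in the Cbs null sample and 89.8 in the control sample, a log2 ratio of -0.87. The oxytocin receptor gene Oxtr was below the floor on both arrays.

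The endothelin receptor gene Ednrb read 128.9 in the Cbs null sample and 236.1 in the control sample, 1.83-fold lower, and its second probe set read 105.7 in the Cbs null sample and 188.8 in the control sample. The endothelin precursor gene Edn1 read 158.8 in the Cbs null sample and 121.3 in the control sample, a log2 ratio of 0.39. The neuromedin B precursor gene Nmb read 781.8 in the Cbs null sample and 865.1 in the control sample. Of these genes Nppa, Ednrb and Npr3 followed the naming rule, and the others were chosen with their values in view.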
